A study of Rattus norvegicus with 12 samples.

Results

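The 9 mature miRs described here, known from epithelia, pancreatic islets and the eye, were followed in the small RNA of serum extracellular vesicles (EVs). They were rno-miR-200a-3p, rno-miR-200b-3p, rno-miR-200c-3p, rno-miR-141-3p and rno-miR-429 of the miR-200 family, rno-miR-203a-3p, rno-miR-205, rno-miR-375-3p and rno-miR-184, where rno marks the rat and is dropped from here on. They were taken by name from the count table, and all 9 of 9 had an entry among its 426 miRs. They were selected on their known tissues and on having counts, if low ones, in this table, with earlier results of these counts in view, so their levels are a description and the tests given below are not independent of that choice. Each library held RNA from the serum EVs of 1 female Wistar rat whose left Achilles tendon had been punctured with a needle at 12 weeks of age. Rats received daily intraperitoneal rapamycin, an inhibitor of the kinase mTOR, at 2 mg per kg or the same volume of vehicle, and were killed at day 7 after 5 injections or at day 21 after 19 injections, with 3 rats in each of the 4 groups. Every rat, the controls included, was injured, and no uninjured serum was in the series. The tissue label names tendon, but the RNA came from serum, which collects EVs from many organs, and the libraries carried erythrocyte, leukocyte, platelet and liver miRs. The source tissue of the 9 miRs is not given by these data.

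The miR-200 family holds down the transcriptional repressors Zeb1 and Zeb2 and so helps to keep epithelial cells in their epithelial state. Its genes lie in a pair of clusters, one with miR-200b, miR-200a and miR-429 and the other with miR-200c and miR-141. miR-203 and miR-205 belong to stratified epithelia such as skin, where miR-203 favours differentiation and miR-205 marks basal cells. miR-375 is the abundant miR of pancreatic islets, where it restrains insulin secretion, and is also found in neuroendocrine and gut epithelial cells. miR-184 is best known from the cornea and lens. A miR chooses its targets mainly through its seed, the stretch near its 5′ end.

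Mature sequences of 6 of the 9 miRs were taken from RefSeq on the GRCr8 assembly and are shown because the seed is the main guide to targets and because counting has to tell near relatives apart. miR-203b-3p, which is transcribed from the opposite strand of the miR-203 gene, is shown beside them. Sequences run 5′ to 3′, and capitals mark the seed, bases 2 to 8.
miR-200c-3p: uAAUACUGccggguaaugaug
miR-141-3p: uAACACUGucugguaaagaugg
miR-203a-3p: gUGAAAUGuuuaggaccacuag
miR-203b-3p: uUGAACUGuuaagaaccacugg
miR-205: uCCUUCAUuccaccggagucugu
miR-375-3p: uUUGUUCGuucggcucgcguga
miR-184: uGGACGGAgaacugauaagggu
These lie at chr4:159209969-159209989 and chr4:159209540-159209561 on the minus strand (miR-200c-3p and miR-141-3p), at chr6:137020756-137020777 on the plus strand and chr6:137020716-137020737 on the minus strand (miR-203a-3p and miR-203b-3p), and on the minus strand at chr13:107564588-107564610 (miR-205), chr9:83906591-83906612 (miR-375-3p) and chr8:99222991-99223012 (miR-184). The deposited counts were made on another assembly, mRatBN7.2, and carry no positions.

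The 6 members printed had 6 different seeds. As background, miR-200b-3p and miR-429 are known to share the seed of miR-200c-3p, and miR-200a-3p that of miR-141-3p, so the family has a pair of seeds that cut across its clusters. Among the printed sequences, miR-200c-3p and miR-141-3p came closest to each other, with 4 differences over 21 aligned bases, and miR-203a-3p differed from miR-203b-3p at 5 of 22. The authors' counting allowed 1 mismatch against miRBase, and members of the family with the same seed, such as miR-200b-3p and miR-200c-3p, are so alike that how their reads were divided is uncertain. In the annotation, Mir200a, Mir200b and Mir429 lie inside Ttll10 on the minus strand, Mir200c and Mir141 lie next to each other near Phb2, and Mir375 overlaps Cryba2. miR-200a-3p, miR-200b-3p and miR-429 have no sequence printed here.

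The study listed 10 of the 12 libraries and gave no reason for leaving out rapamycin day 7 replicate 2 and vehicle day 7 replicate 1. Values are given for the 10 listed libraries and then for all 12, because both unlisted libraries stood apart. Their miR totals of 51431 and 95834 counts compared with 16327 to 51391 in the listed libraries, and they held 5.53 and 12.8 miR counts per calibrator spike-in count against 0.686 to 1.58. The calibrators are synthetic RNAs added during library preparation. Levels are given in CPM, the counts per 1e+06 miR counts of the library, with no further scaling. The summed erythrocyte miRs (all 4 markers had an entry) were lower there, at 75227 and 33568.5 CPM against 105024 to 188607. Liver miR-122-5p reached 9100 and 11676 CPM against 0 to 8881. The 7 muscle miRs, all with an entry, reached 1031 and 11082 CPM against 0 to 1979, so only the unlisted vehicle library stood apart in them. Nearly all of the muscle sum was miR-133a-3p, with 46 of 53 and 1026 of 1062 counts, while miR-1-3p had 2 counts in each. The summed leukocyte and platelet miRs did not stand apart, at 31382 and 21850 CPM against 21640 to 52980. A level of 3 counts, taken as the smallest that the depth can show, was 58.4 to 184 CPM in the listed libraries and 58.3 and 31.3 CPM in the unlisted ones.

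All 9 miRs were scarce. Together they made up 0.116% (95% Wilson interval 0.0745 to 0.182%) of the miR counts in the lowest listed library, rapamycin day 21 replicate 1, and 0.474% (0.392 to 0.573%) in the highest, rapamycin day 7 replicate 3. In the unlisted libraries the share was 0.894% (0.817 to 0.980%) with rapamycin and 0.640% (0.591 to 0.692%) with vehicle. These intervals, like the level of 3 counts, cover counting error only, because no molecular identifiers were used and reads may repeat a molecule. Day 7 listed libraries lay between 0.311 and 0.474%, and day 21 libraries between 0.116 and 0.400%, so the timepoints overlapped through rapamycin day 21 replicate 2 alone.

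**Figure D1:**
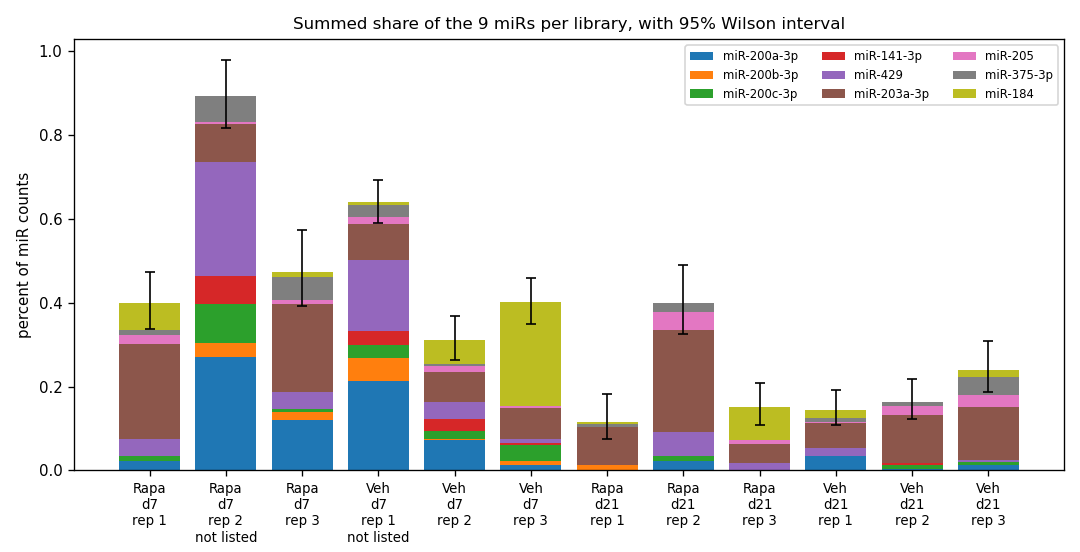
Stacked bars give the percent of all miR counts taken by each of the 9 miRs in each of the 12 libraries, and black bars the 95% Wilson interval of their sum. The 2 libraries not listed by the study reach 0.894 and 0.640%, above all 10 listed libraries, mainly through miR-200a-3p and miR-429.

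miR-203a-3p was the most abundant of them. Over the 10 listed libraries its mean level was 1267 CPM ± 734 (SD, n = 10), rank 70 of 365 miRs, and it had counts in 12 of 12 libraries. miR-184 followed at 502 ± 748 CPM, miR-200a-3p at 301 ± 385, miR-429 at 225 ± 204, miR-375-3p at 163 ± 184, miR-205 at 155 ± 134, miR-200c-3p at 111 ± 117, miR-200b-3p at 40.3 ± 64.5 and miR-141-3p at 37.6 ± 88.5 (SD, n = 10 for each). From miR-184 down, each mean differed from the next by less than the larger of their SDs, so the order below miR-203a-3p is not resolved. miR-203a-3p was the highest of the 9, alone or tied, in 8 of the 10 listed libraries, and miR-184 led in the remaining 2, vehicle day 7 replicate 3 and rapamycin day 21 replicate 3. In the unlisted libraries the lead passed to miR-429 with rapamycin (141 counts) and to miR-200a-3p with vehicle (205 counts). With all 12 libraries, miR-200a-3p (654 ± 904 CPM) and miR-429 (556 ± 826 CPM, SD, n = 12) stood above miR-184 (425 ± 701 CPM).

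**Figure D2:**
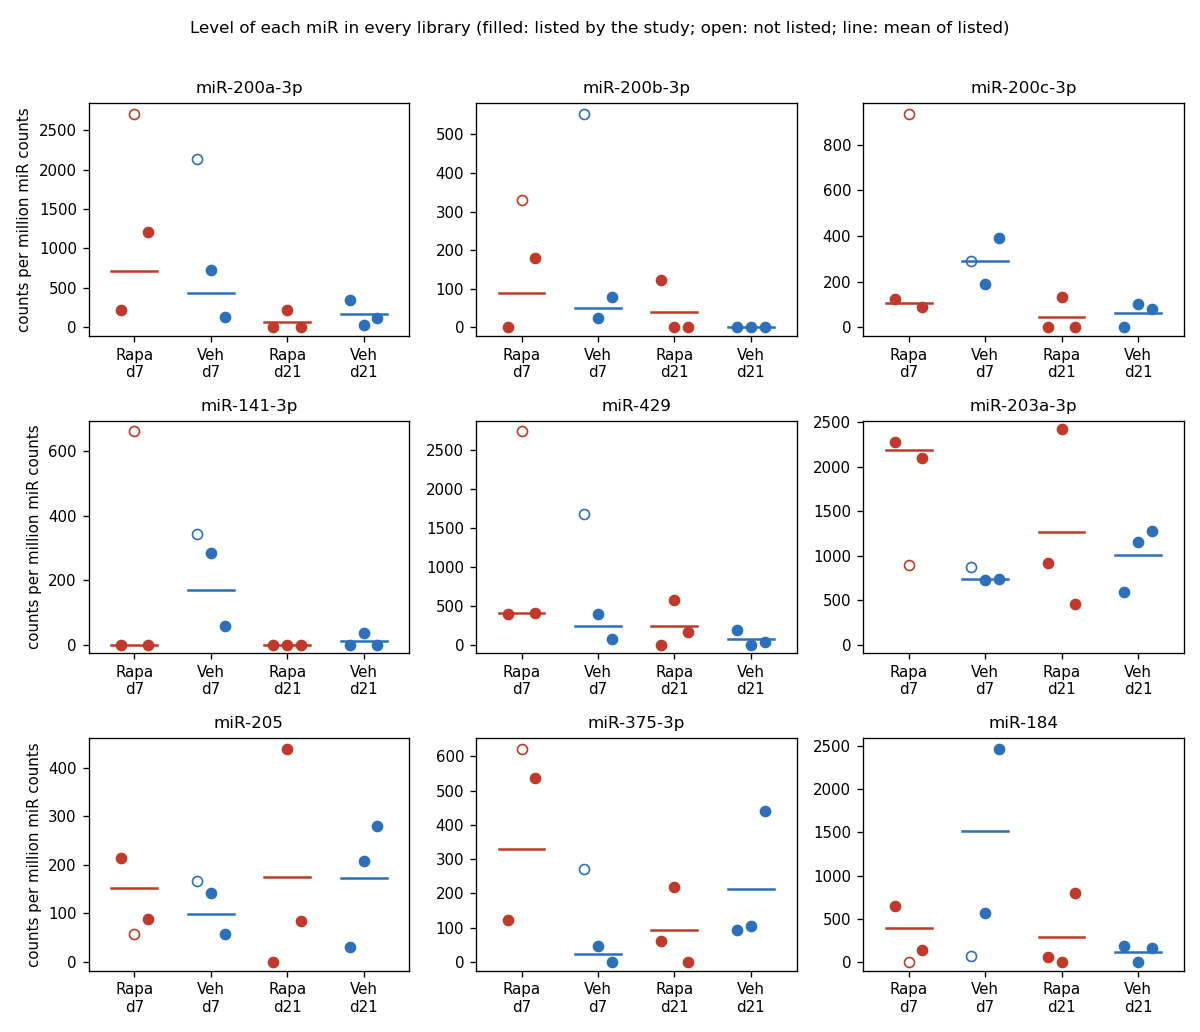
Each panel shows 1 miR in CPM for the 4 groups of 3 rats, with filled points for listed libraries, open points for the 2 not listed and a line at the mean of the listed libraries. The open points are the highest of all 12 for miR-200a-3p, miR-200b-3p, miR-141-3p and miR-429, while miR-184 is highest in vehicle day 7 replicate 3 at 2471.

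Within the miR-200 family, the cluster of miR-200a-3p, miR-200b-3p and miR-429 is described first. miR-200a-3p had 7 and 27 counts in the listed rapamycin libraries of day 7 and 31 and 7 in the vehicle libraries. At day 21 the rapamycin libraries had 0, 5 and 0 counts and the vehicle libraries 11, 1 and 3. Its counts were low in every day 21 library, and the treatments overlapped at both timepoints. The unlisted day 7 libraries held 139 counts with rapamycin and 205 with vehicle, more than the 92 counts of the 10 listed libraries together in either case. For miR-429 the day 7 counts were 13 and 9 (rapamycin) against 17 and 4 (vehicle), and the day 21 counts were 0, 13 and 4 (rapamycin) against 6, 0 and 1 (vehicle). It too was highest in the unlisted libraries, at 141 and 161 counts. miR-200b-3p was near the limit of detection, with 0 and 4 counts in the rapamycin and 1 and 4 in the vehicle libraries of day 7. At day 21 it had 2, 0 and 0 counts under rapamycin and 0 in all 3 vehicle libraries. The unlisted libraries held 17 and 53 counts of it.

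The second cluster was sparser. At day 7 miR-200c-3p had 4 and 2 counts under rapamycin and 8 and 20 under vehicle. At day 21 these were 0, 3 and 0 for rapamycin and 0, 3 and 2 for vehicle. In CPM the listed rapamycin libraries of day 7 (123 and 89.5) lay below the vehicle libraries (189 and 389), but the unlisted rapamycin library at 933 CPM was the highest of the 12. miR-141-3p was at 0 in all 5 listed rapamycin libraries, while the vehicle libraries had 12 and 3 counts at day 7 and 0, 1 and 0 at day 21. Over the listed libraries that is 0 of 117782 miR counts with rapamycin against 16 of 179670 with vehicle, which puts miR-141-3p at least 3.50-fold lower with rapamycin when 3 counts over the group are taken as the limit. Vehicle day 7 replicate 2 supplied 12 of the 16, and without it the limit was 1.14-fold, from 4 of 137246 counts. The unlisted rapamycin library, however, held 34 counts of miR-141-3p and the unlisted vehicle library 33. With these added, the day 7 counts of 0, 34 and 0 with rapamycin enclosed the 33, 12 and 3 of the vehicle libraries.

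miR-203a-3p was higher in the listed rapamycin libraries of day 7 than in the vehicle libraries. Its rapamycin counts were 74 and 47, or 2274 and 2102 CPM, and its vehicle counts 31 and 38, or 731 and 739 CPM. The groups did not overlap, and within each treatment the libraries lay close together. The unlisted libraries narrowed the gap to almost nothing, with 894 CPM (46 counts) for rapamycin and 877 CPM (84 counts) for vehicle, though the 3 rapamycin values still lay above the 3 vehicle values. At day 21 rapamycin libraries spread over 919, 2419 and 462 CPM and enclosed the vehicle libraries at 591, 1150 and 1278 CPM. miR-205, the other miR of stratified epithelia, had 10 counts or fewer in each listed library, with 7 and 2 against 6 and 3 at day 7 and 0, 10 and 2 against 1, 6 and 7 at day 21 (rapamycin first in each), and its treatments overlapped throughout. Its unlisted libraries had 3 and 16 counts, or 58.3 and 167 CPM, below both listed rapamycin libraries of day 7 (215 and 89.5 CPM) and above both vehicle libraries (141 and 58.4 CPM).

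miR-375-3p, the islet miR, had 4 and 12 counts in the rapamycin libraries of day 7 and 2 and 0 in the vehicle libraries. At day 21 the rapamycin libraries had 1, 5 and 0 counts and the vehicle libraries 3, 3 and 11. The listed rapamycin libraries were higher at day 7, whereas at day 21 the treatments overlapped. The unlisted libraries, at 622 CPM (32 counts) with rapamycin and 271 CPM (26 counts) with vehicle, made the day 7 groups overlap.

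miR-184 was uneven between libraries. It had 127 counts, 2471 CPM, in vehicle day 7 replicate 3, of 205 counts in all 10 listed libraries. The other listed vehicle library of day 7 had 24 counts (566 CPM), the rapamycin libraries 21 and 3 (645 and 134 CPM), and at day 21 the counts were 1, 0 and 19 (rapamycin) and 6, 0 and 4 (vehicle). Rapamycin day 21 replicate 3 supplied nearly all counts of its group, and the treatments overlapped at both timepoints. Unlike the miR-200 family, miR-184 was low in the unlisted libraries, with 0 counts with rapamycin and 7 with vehicle.

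The study asked whether rapamycin changed circulating miRs after tendon injury. Treatments were compared by the quasi-likelihood test of edgeR after TMM normalisation, with Benjamini-Hochberg adjustment over all miRs, and a miR was called at an adjusted p under 0.05. Over both timepoints, with timepoint as a blocking factor, none of the 9 miRs was called in the 10 listed libraries, where 0.548% of all 365 miRs were. At an unadjusted p under 0.05 edgeR gave 1 of the 9, miR-141-3p, whose rapamycin libraries were all at 0, against 5.75% of all miRs. miR-203a-3p had a log2 fold change of 0.75 (SE 0.42, edgeR adjusted p = 0.808), and of 0.45 without rapamycin day 21 replicate 2. The median log2 fold change of the 9 was 0.21, also with miR-141-3p placed at its limit of 3 counts, and that of all miRs 0.03. In all 12 libraries edgeR called 0% of the 426 miRs, the 9 included, and an unadjusted p under 0.05 was reached by 15 miRs (3.52%) but by none of the 9.

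At day 7 none of the 9 was called either, beside 0.548% of all miRs, and 3 of the 9 had an unadjusted edgeR p under 0.05 beside 3.84% of all. miR-203a-3p had a log2 fold change of 1.43 (SE 0.66, edgeR adjusted p = 0.971), or 1.08 (SE 0.64) with all 12 libraries. miR-375-3p had a log2 fold change of 3.50 (SE 1.54, edgeR adjusted p = 0.834), from 16 counts against 2, and 1.91 (SE 1.07) with all 12. It was 2.20 without rapamycin day 7 replicate 3, and without vehicle day 7 replicate 2 the vehicle library left was at 0, so no fold is given. For miR-184 it was -2.07 (SE 0.88, edgeR adjusted p = 0.742), and -2.19 (SE 0.84, edgeR adjusted p = 1) with all 12. Without vehicle day 7 replicate 3 it was -0.58 (edgeR adjusted p = 1), and without rapamycin day 7 replicate 1 it was -3.59. With only the day 7 libraries in the model, miR-184 passed the threshold (edgeR adjusted p = 0.0254), where 8 of 334 miRs did. In all 12 libraries edgeR called 0% of miRs at day 7, and 1 of the 9, miR-184, was among the 1.88% with an unadjusted p under 0.05.

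Of the 4 members with a mean of at least 5 counts per listed library (miR-200a-3p, miR-429, miR-203a-3p and miR-184), 1, miR-203a-3p, did not overlap between treatments at day 7. With 2 rats against 2 that held for 51.0% of the 149 miRs with as many counts, so it is no result about miR-203a-3p. In all 12 libraries, where 9 of 9 met the same minimum but 5 did so only through the unlisted libraries, 1 of the 9, again miR-203a-3p, did not overlap, beside 3.35% of 179 miRs. An exact permutation test within timepoints, two-sided, gave miR-203a-3p a p of 0.167 in the 10 libraries (adjusted p = 0.591 over 149 miRs), where 120 arrangements allow a smallest p of 0.0167. In the same exact permutation test the other 3 members had p-values from 0.317 to 0.833. In all 12 libraries the 9 members had exact permutation p-values from 0.25 to 0.775, where 400 arrangements allow 0.005.

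At day 21 no member was called and none had an unadjusted edgeR p under 0.05 in the 10 or the 12 libraries, beside 0% of miRs called in each. An unadjusted p under 0.05 was reached by 4.11% of all miRs in the 10 libraries and by 2.82% in the 12. The treatments overlapped for every member, while they did not for 10.7% of 149 miRs in the 10 libraries and 10.1% of 179 in the 12. The difference between the timepoints in the treatment difference was tested as an interaction. None of the 9 passed, beside 0.274% of all miRs, and 2 had an unadjusted edgeR p under 0.05 beside 3.56%. For miR-184 the interaction was -3.49 (log2 of the day 7 fold change over that of day 21, SE 1.20, edgeR adjusted p = 0.415). It rested on single libraries, being -0.01 without rapamycin day 21 replicate 3 and -1.89 without vehicle day 7 replicate 3. Without rapamycin day 21 replicate 2 it was -3.92 and passed the threshold (edgeR adjusted p = 0.0275), where 7 of 361 miRs did. In all 12 libraries none passed either, beside 0% of all miRs, and 2 of the 9 had an unadjusted edgeR p under 0.05 beside 3.29%. For miR-375-3p the interaction was 4.66 (SE 1.94, edgeR adjusted p = 1.00), 3.42 without rapamycin day 7 replicate 3, and 3.17 in all 12 libraries.

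**Figure D3:**
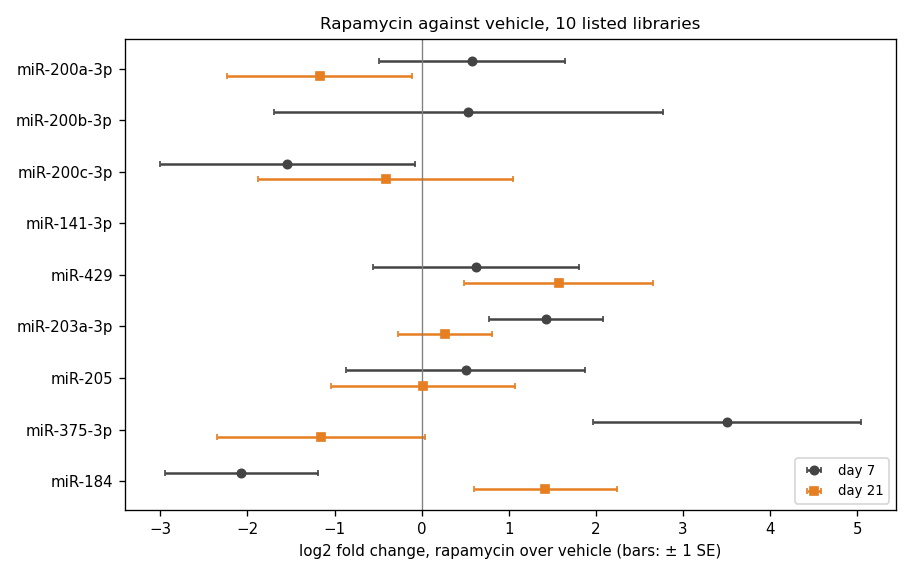
Points give the log2 fold change of rapamycin over vehicle at day 7 (circles) and day 21 (squares) from edgeR on the 10 listed libraries, with bars of 1 SE, and members with a group at 0 counts are left out. miR-375-3p (3.50) and miR-203a-3p (1.43) are to the right and miR-184 (-2.07) to the left of 0 at day 7, and none of them was called.

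Between timepoints, how many members were called depended on the 2 unlisted libraries, both of which are from day 7. With treatment as a blocking factor, none of the 9 was called between day 21 and day 7 in the 10 listed libraries, beside 0.274% of all miRs, and 2 had an unadjusted edgeR p under 0.05 beside 5.48%. The log2 fold change at day 21 over day 7 was -2.07 for miR-184 (SE 0.62, edgeR adjusted p = 0.0839) and -2.11 for miR-200a-3p (SE 0.73, edgeR adjusted p = 0.207). For miR-184 it was -1.18 without vehicle day 7 replicate 3. It was -2.78 and -3.68, past the threshold, without rapamycin day 7 replicate 3 and without rapamycin day 21 replicate 3 (edgeR adjusted p = 0.00460 and 2.11e-05). The latter 2 fits called 2 of 352 and 4 of 362 miRs. For miR-200a-3p it was -1.40 without rapamycin day 7 replicate 3. All 5 miRs of the miR-200 family had negative fold changes, with miR-200b-3p at -2.02 (SE 1.58), miR-200c-3p at -1.72 (SE 0.97), miR-141-3p at -2.95 (SE 1.75) and miR-429 at -1.02 (SE 0.77), none past the threshold. Single libraries moved these values. Without vehicle day 7 replicate 2, miR-141-3p was at -1.51 and miR-429 at -0.48. Without rapamycin day 21 replicate 2, miR-429 was at -1.74 and miR-200c-3p at -2.58, and without vehicle day 21 replicate 1 miR-429 was at -1.61. miR-200b-3p had counts in only 1 library of day 21, rapamycin replicate 1, and no fold is given without it. The median of the 9 was -1.72 and that of all 365 miRs -0.05. The timepoints overlapped for every member, while 0.671% of 149 miRs did not overlap in the 10 libraries and 0.559% of 179 in the 12.

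In all 12 libraries, 3 of the 9 were lower at day 21 by edgeR, namely miR-200a-3p (log2 fold change -2.96, SE 0.60, adjusted p = 0.000149), miR-429 (-2.37, SE 0.60, adjusted p = 0.00494) and miR-141-3p (-4.37, SE 1.21, adjusted p = 0.0127), where 3.29% of all 426 miRs were called lower and 3.52% in either direction. With 14.6% of all miRs, 6 of the 9 had an unadjusted edgeR p under 0.05. miR-200b-3p (-3.27, SE 1.15, edgeR adjusted p = 0.0875) and miR-200c-3p (-2.41, SE 0.83, edgeR adjusted p = 0.0812) did not pass. The median of all miRs was itself -0.54 in this fit, so the shifts are to be read relative to that value, and the median of the 9 was -2.37. With only vehicle day 7 replicate 1 added to the 10, edgeR called 1 of the 9, miR-200a-3p, beside 10 of all 409 miRs. With only rapamycin day 7 replicate 2 added it called 2, miR-141-3p and miR-200a-3p, beside 7 of all 397. The family took 0.0738 to 0.188% of the miR counts in the listed day 7 libraries and 0.0122 to 0.0924% at day 21, so the timepoints overlapped. Its counts per 1000 calibrator counts ran from 1.11 to 2.57 in the listed day 7 libraries, from 0.0840 to 1.02 at day 21, and were 40.8 and 63.9 in the unlisted libraries. On that scale the listed timepoints did not overlap, though narrowly, and the share of all miRs that did the same was not computed. All miR counts per calibrator count were also lower at day 21, with a median of 1.04 against 1.54 in the listed day 7 libraries. Lower values at day 21 on this scale therefore do not stand for the family alone. The family's median per 1000 calibrator counts was 1.55 in the listed day 7 libraries and 0.224 at day 21. Its median share of the miR counts was 0.118 and 0.0207%. How much of the difference on the calibrator scale belongs to the family was not tested. miR-122-5p, the liver miR, moved the same way, at 2997 to 8881 CPM in the listed libraries of day 7 and 0 to 5113 CPM at day 21, and was called lower at day 21 in both fits. The part of timepoint, tissue content and the standing of the unlisted libraries in this difference was not tested.

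**Figure D4:**
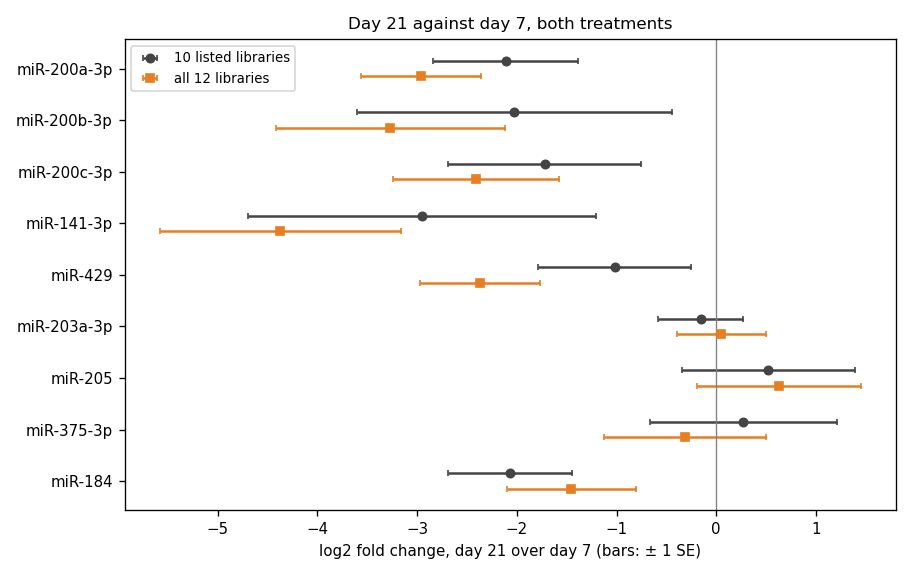
Points give the log2 fold change of day 21 over day 7 from edgeR for the 10 listed libraries (circles) and all 12 (squares), with bars of 1 SE. The 5 miR-200 members lie left of 0 in both and farther left with all 12 libraries, while miR-203a-3p stays near 0 (-0.15 and 0.05).

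The unlisted libraries were set against the listed libraries of their own group, as a description of single libraries. The 179 miRs ranked have a mean of at least 5 counts over all 12 libraries. Over the 10 listed libraries miR-141-3p, miR-200c-3p and miR-200b-3p had means of only 1.6, 4.2 and 1.1 counts, and miR-375-3p and miR-205 of 4.1 and 4.4. They were thus ranked only through the counts of the unlisted libraries, and their ranks are no result about them. The family's medians, which include some of them, are no result about the family either. In rapamycin day 7 replicate 2, miR-141-3p, miR-200c-3p and miR-429 ranked 1, 2 and 3 by log2 difference in CPM, at 3.73, 2.63 and 2.62. For miR-141-3p the listed libraries of that group were at 0 counts. miR-184 ranked last at -2.75. The family's median was 2.62 and that of all 179 miRs 0.36. In vehicle day 7 replicate 1 the family's median was 2.51, led by miR-429 at 2.82 (rank 11), but miR-200c-3p was at 0.08, near the overall median of 0.43. miR-184 was again among the lowest at -3.30 (rank 177). miR-200a-3p and miR-429, which met the minimum in the listed libraries too, were high in both. As miR-141-3p had 34 counts in the rapamycin and 33 in the vehicle library, no contrast between the clusters is drawn. In the rapamycin library 6 of the 9, and in the vehicle library 4, lay above all 10 listed libraries, as did 31.8% of the 179 miRs in each. Members ranked only through the unlisted libraries are among these, so the counts are no result about the 9.

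**Figure D5:**
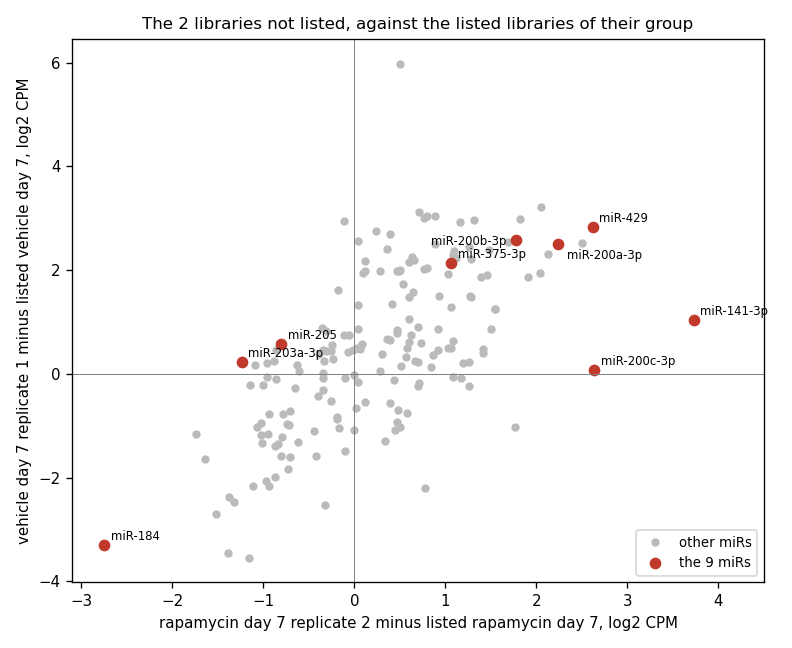
Each point is 1 of 179 miRs, placed by its log2 difference in CPM between an unlisted library and the listed libraries of the same group, for the rapamycin library on the x axis and the vehicle library on the y axis. miR-429 (2.62 and 2.82) lies at the upper right, miR-141-3p (3.73) farthest right and miR-184 (-2.75 and -3.30) at the lower left. The listed rapamycin libraries of day 7 had 0 counts of miR-141-3p.

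Related miRs gave few counts. Of 8 other arms and near relatives of the 9, 3 had an entry, with 26 counts in all. miR-203b-3p, from the strand opposite miR-203a-3p, had at most 8 counts in a library, in rapamycin day 7 replicate 2. Of 7 sensory and neuroendocrine miRs 5 had an entry (84 counts), among them miR-182 with up to 8 counts and miR-9a-5p with up to 9. All 6 miRs of eye, kidney and airway epithelium had one (208 counts), and their sum was 953 and 710 CPM in the unlisted libraries against 117 to 546 CPM in the listed ones. miR-204-5p of eye and kidney epithelium reached 43 counts in the unlisted vehicle library, and miR-34b-5p of ciliated airway cells 25 in the unlisted rapamycin library. By edgeR none of these 3 lists had a member called, or one with an unadjusted p under 0.05, between treatments or between timepoints in the 10 or the 12 libraries. Of all miRs, 0 to 3.52% were called in these comparisons and 1.88 to 14.6% had an unadjusted edgeR p under 0.05. With so few miRs at such low counts, this is no result about the lists.

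The miRs whose levels ran most like each member across the 12 libraries were found by Pearson's r of log2 CPM among 179 miRs, as a description over libraries that differ in depth. miR-429 came closest to miR-224-5p (r = 0.951 over 12 libraries and 0.947 over the 10 listed) and miR-221-3p (0.911 and 0.887), then to its cluster neighbour miR-200a-3p (0.859 and 0.708). miR-200c-3p and miR-141-3p, which are also neighbours, had r = 0.784 over 12 but 0.549 over 10. miR-205 was most like miR-351-5p (0.834 and 0.884) and miR-203a-3p most like miR-19a-3p (0.683 and 0.676). Over the 10 listed libraries, however, miR-203a-3p was closer to miR-195-5p (0.880) and miR-107-3p (0.802). For miR-184 no miR exceeded the 0.673 of let-7c-5p over 12 libraries (0.761 over 10). For miR-375-3p the closest over 12 was miR-30c-2-3p (0.813 and 0.773), with miR-378a-3p (0.798 and 0.805) above it over the 10.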

How the data were processed

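Small RNA from serum EVs of 12 rats was sequenced. The authors deposited raw read counts per mature rat miR. Per the study's methods, reads were trimmed with cutadapt (3.3 in the submitters' processing notes), kept at 17 nt or longer, mapped with Bowtie (1.3.0) to mRatBN7.2 allowing 2 mismatches and assigned to miRBase allowing 1. The 10 spike-in sequences (7 calibrators and 3 quality controls) were left out of every miR total, which ran from 16327 to 95834 counts. Counts were read as deposited. CPM is the count relative to the miR total.

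The 10 libraries that the study listed were used first and all 12 second. Counts were fitted with edgeR 4.0.16 (R 4.3.3) by glmQLFit with the legacy option and glmQLFTest after TMM, two-sided, with Benjamini-Hochberg adjustment over every miR with a count in the libraries fitted and no abundance cutoff. Models had a mean per treatment and day, or timepoint and treatment as additive terms. SEs are the log2 fold change over the root of F. Single members with a mean of at least 5 counts were also compared by an exact permutation test of log2 CPM (prior count 2) within timepoint. Fits were tested on simulated data, where detection was scored only for miRs with more counts than most members had. Alternatives were DESeq2 1.42.0, limma-voom (limma 3.58.1), other scalings and filters, a replicate block and leaving out each library. Each library is a separate rat. Every member of the list is named; related miRs only with at least 5 counts in some library. The members, related lists and markers were chosen with earlier results of these data known. Sequences are from RefSeq (GRCr8) and matched 6 of 9 members.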

Additional observations from a re-analysis of the deposited data

Results flagged for a closer look

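Of 35 groups of 5 or 6 libraries tested for a sample far from the rest (Dixon's test at the 95% level), 11 had such a sample. The usual 1 in 20 by chance assumes normal values and does not apply to CPM of mostly low counts. The groups of 5 also lie within those of 6, so the flags are a description only. miR-141-3p had counts in only 1 of the 6 rapamycin libraries, which made its flag there certain. Among the 5 listed libraries of a treatment these were miR-200a-3p at 1208 CPM in rapamycin day 7 replicate 3, miR-141-3p at 283 CPM in vehicle day 7 replicate 2, miR-375-3p at 439 CPM in vehicle day 21 replicate 3 and miR-184 at 2471 CPM in vehicle day 7 replicate 3. miR-184 in that library also stood apart from all 6 vehicle libraries. With 6 libraries, vehicle day 7 replicate 1 stood apart for miR-200a-3p (2139 CPM), miR-200b-3p (553 CPM) and miR-429 (1680 CPM), and rapamycin day 7 replicate 2 for miR-200c-3p (933 CPM), miR-141-3p (661 CPM) and miR-429 (2742 CPM). The groups pool both timepoints, so a difference between days also counts towards such a gap.

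The libraries that the study did not list held levels above all 5 listed vehicle libraries. In rapamycin day 7 replicate 2 this was so for miR-200a-3p (2703 CPM), miR-200b-3p (331 CPM), miR-200c-3p (933 CPM), miR-141-3p (661 CPM), miR-429 (2742 CPM) and miR-375-3p (622 CPM). In vehicle day 7 replicate 1 it was so for miR-200a-3p (2139 CPM), miR-200b-3p (553 CPM), miR-141-3p (344 CPM) and miR-429 (1680 CPM). Tissue content, depth and rat differ together between these and the listed libraries and cannot be told apart.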

How the results depend on the processing

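Between treatments, no member was called over both timepoints or at day 21 under any alternative run. Independent filtering on abundance left only 2 of the 9 to be tested over both timepoints, 1 at day 21 and 0 at day 7. The members it removed could not be called in those comparisons. At day 7 the count rose from 0 to 1 (miR-184) with only the day 7 libraries in the model, where 8 of 334 miRs were called. For the interaction, leaving out each library gave 0 to 1, the 1 being miR-184 without rapamycin day 21 replicate 2 (7 of 361 miRs called). DESeq2 and limma-voom called 0 of all miRs in every comparison, with 12, 7, 9, 6 and 9 (DESeq2) and 52, 42, 24, 16 and 48 (limma-voom) at an unadjusted p under 0.05 over both timepoints, at day 7, at day 21, for the interaction and between timepoints. Between timepoints the count of 0 became 1 (miR-184) with the calibrators as library size (5 of 365 miRs called) and with independent filtering on abundance (5 of 168). The count was also 1 (miR-184) with edgeR without its legacy option (2 of 365). With all 12 libraries it was 3 (miR-200a-3p, miR-429, miR-141-3p), beside 15 of 426 miRs. It became 5, the whole miR-200 family, with all 12 and no legacy option (21 of 426 miRs called). Of the 12, leaving out rapamycin day 7 replicate 2 gave 1 (10 of 409) and leaving out vehicle day 7 replicate 1 gave 2 (7 of 397). The legacy option and the 11-library fits were chosen after seeing the data. Leaving out each listed library gave 0 to 1 between timepoints. miR-184 was called without rapamycin day 7 replicate 3 (2 of 352 miRs called) and without rapamycin day 21 replicate 3 (4 of 362). None of the 12 member fold changes recomputed under the alternatives reversed. Apart from miR-203a-3p over both timepoints, they were chosen for an unadjusted edgeR p under 0.05 in the 10 or the 12 libraries. That choice itself favours a stable sign. filterByExpr gave no fold change for miR-200b-3p, miR-200c-3p and miR-141-3p. The fold change of miR-203a-3p between timepoints, which was not among the 12 recomputed, changed sign, from -0.15 (10 libraries) to 0.05 (all 12). The abundance filter of filterByExpr left 5 of the 9.

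Replicate numbers were not taken to pair the rats. Deviations of same-numbered libraries correlated from -0.49 to -0.02 over 4 pairs of listed libraries and from -0.78 to 0.32 over 6 pairs of all 12. Deviations sum to 0 within such small groups, so these correlations cannot decide whether rats were paired. With a replicate block within timepoint, 0 members were called between treatments. The same fits called 0 of all 365 miRs in the 10 libraries and 0 of all 426 in the 12, so this is no result about the members. In these fits miR-203a-3p over both timepoints had a log2 fold change of 0.43 in the 10 libraries and 0.47 in all 12. The block was not fitted between timepoints, nor at day 7 in the 10 libraries, where 1 number is shared.

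miR-203a-3p aside, most listed libraries held under 20 counts of a member, and a level under 58.4 to 184 CPM could not be shown.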
